A study of Homo sapiens with 16 samples.

Results

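NF-kB cytokine and secretory genes are described here as 37 genes picked by symbol: chemokines, interleukins, NF-kB subunits and their inhibitors, signalling proteins, and secreted enzymes. All 37 were among the 26485 genes of the count table. The table held RNA-seq counts for 16 libraries, 8 from PC3, a line from a prostate cancer metastasis, and 8 from HeyA8, an ovarian cancer line. In each line the 4 groups were mock-treated cells and cells transfected by RNAiMAX with siNT1 (a non-targeting control), siGGGGGC (a duplex whose seed reads GGGGGC) or siCAG (a duplex built of CAG repeats). The labels gave the siRNA dose as 1 nM, and the methods of the study give a different dose. Each group had 1 library at 24 h and 1 at 48 h after transfection, and both lines were labelled wild type. The labels do not say whether mock-treated cells received the lipid, and the study's methods state that the medium was changed after the 24 h cells had been lysed.

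The depth was similar across libraries, with 27937092 to 29971612 counted reads in PC3 (median 28520015) and 29128446 to 31790209 in HeyA8 (median 30537650). A normalized count below is a count divided by the TMM-scaled size of its library and multiplied by the mean scaled size of that line. The 24 and 48 h libraries were taken as the 2 replicates of a group. For siNT1 and siGGGGGC the study's methods describe separate wells lysed at each time, without saying whether these came from independent cultures, and they do not describe the mock and siCAG wells. The p-values thus measure only the spread between these libraries after the time term. A change at 1 time point alone has no replicate. Where a fit leaves out 1 library, the lone library of that group was taken to vary like the other groups. Line markers fitted the labels in part. HOXB13, a prostate transcription factor, was between 2483 and 15100 normalized counts in PC3, and PAX8, of the Müllerian tract, was between 1823 and 6633 in HeyA8. The prostate kallikreins KLK2 and KLK3 were at 0 in all 16 libraries. Of the 9 immune markers, CD3E and MS4A1 were at 0 in all 16 libraries, and CD68, a lysosomal protein that is abundant in macrophages, was the highest, at 367 to 1091 normalized counts in PC3 and 643 to 2944 in HeyA8.

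NF-kB is a family of dimeric transcription factors, built from RELA, RELB, NFKB1, NFKB2 and REL, which inhibitor proteins such as NFKBIA hold in the cytoplasm. Receptors for IL-1, TNF and microbial or viral products activate kinases that mark the inhibitor for degradation, after which the dimers enter the nucleus and bind kB sites in promoters. Their targets include neutrophil-attracting chemokines, IL6 and other cytokines, adhesion molecules, and the inhibitors NFKBIA and TNFAIP3, which close the loop. Cancer cells of several types secrete these cytokines at rest.

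The promoter sequences were examined because kB sites are the DNA elements that NF-kB binds. RefSeq promoters, 250 bases before to 50 after the start in GRCh38.p14, were found for 30 of the 37 genes. Windows with the NF-kB consensus (kB site) are shown for 7 genes that carry results below. Capitals mark the 10 bases of the match, and each window is read 5′ to 3′ on the strand of the gene.
CXCL8: ttgcaaatcgTGGAATTTCCtctgacataa
CXCL1: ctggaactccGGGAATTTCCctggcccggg
CXCL3: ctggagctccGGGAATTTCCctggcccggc
CXCL5: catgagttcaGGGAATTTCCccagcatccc
CXCL6: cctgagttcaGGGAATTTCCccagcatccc
IL6: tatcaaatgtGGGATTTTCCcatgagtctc
ICAM1: tgctttagctTGGAAATTCCggagctgaag
The marked bases lie at chr4:73740477-73740486 (CXCL8), chr4:73869314-73869323 (CXCL1), chr4:74038759-74038768 (CXCL3), chr4:73998759-73998768 (CXCL5), chr4:73836588-73836597 (CXCL6), chr7:22727127-22727136 (IL6) and chr19:10270933-10270942 (ICAM1), all upstream of the RefSeq start of the gene. GENCODE places the start of CXCL3 and IL6 further upstream and the counting annotation that of CXCL6 and ICAM1, so these 4 matches fall inside the gene there. CXCL3 and CXCL5 are on the minus strand, the others on the plus strand. The match was identical in CXCL1, CXCL3, CXCL5 and CXCL6, which lie within 359 kb of each other, with CXCL8 and CXCL2, at chr4:73740519-74099196. With the strict form of the consensus, which starts with G, 15 of 30 members (50%) had a match on either strand, against 1949 of 16199 promoters (12%). With a first base of G or T, as in CXCL8 and ICAM1, the numbers were 18 of 30 (60%) and 3390 of 16199 (20.9%). The members were picked as NF-kB genes, so these shares describe that choice and are no test of the set. PTGS2, IL1A and IL1B, which were called in comparisons below, had a RefSeq promoter with no match to either form. Matches on both strands can overlap, as they do in CXCL1, and a match is a string in a window, not an occupied site.

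Levels in mock-treated cells are given first. They were set between genes per kilobase of the canonical transcript (CPM per kb, mean of the 2 mock libraries of a line). In PC3 the highest members were NFKBIA, the main cytoplasmic inhibitor, at 38.0, RELA at 33.8, LIF, a cytokine of the IL-6 family, at 31.7, NFKB2 at 17.1 and the adhesion molecule ICAM1 at 16.5. In HeyA8 they were RELA at 41.1, the chemokine CXCL1 at 27.9, NFKB1 at 21.3, NFKBIA at 20.6 and CXCL8 at 18.2. Neither LIF nor ICAM1 was high in HeyA8 (3.17 and 0.977). SOD2 has a long annotated 3′ end beyond the gene as counted, so its level per kilobase was not used.

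**Figure D1:**
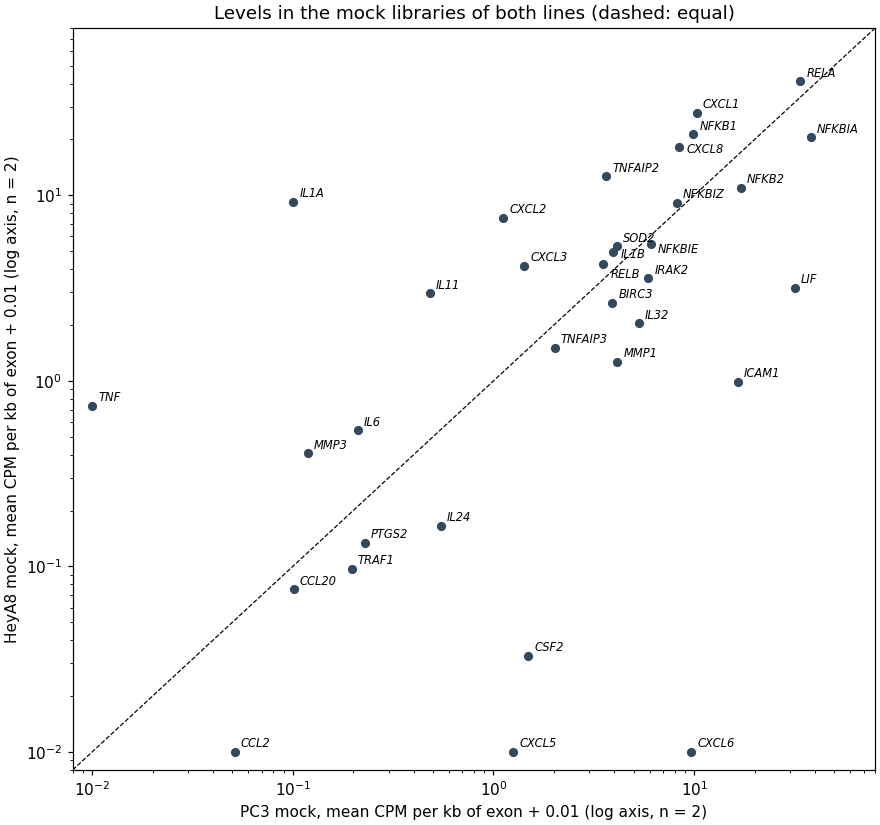
Mean CPM per kilobase of exon in the 2 mock libraries of PC3 (x axis) and HeyA8 (y axis), with 0.01 added and both axes logarithmic; each point is a member and the dashed line marks equal levels. LIF (31.7 and 3.17) and ICAM1 (16.5 and 0.977) lie far below the line, IL1A (0.0903 and 9.24) far above it, and CXCL5 and CXCL6 sit at the floor of the HeyA8 axis. SOD2 is drawn with a length that includes its uncounted 3′ end, so its point is not to be read against the others.

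Between the mock libraries, in a fit over both lines, 10 members were higher and 9 lower in PC3 of 33 tested (edgeR quasi-likelihood, adjusted p under 0.05). Of all 15887 genes tested, 51% were called, so this share was near that of any gene. The ELR chemokines, which draw neutrophils through CXCR1 and CXCR2, were split. CXCL5 had 200 counts in the PC3 mock libraries and CXCL6 had 978, while both were at 0 in all 8 HeyA8 libraries. Against a floor of 3 counts over the 2 HeyA8 mock libraries, CXCL5 was at least 55.7-fold higher and CXCL6 at least 273-fold higher in PC3. CXCL1, CXCL2, CXCL3 and CXCL8 were lower in PC3, by log2 differences of -1.61 ± 0.39 (SE), -3.08 ± 0.32, -1.89 ± 0.33 and -1.50 ± 0.43 (adjusted p between 1.67e-05 and 0.0128, edgeR). The CXCL8 call was lost without either PC3 mock library and without the 24 h HeyA8 mock library. That of CXCL1 was lost without the 24 h PC3 mock library. Those of CXCL5 and CXCL6 were lost without either HeyA8 mock library, although both genes were at 0 throughout HeyA8. With the time term left out, CXCL1, CXCL3 and CXCL8 were not called, at 49.2% of all genes. CXCL1, CXCL2 and CXCL3 have near-identical sequences, so reads may be shared out unevenly among them.

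Among the cytokines, LIF had 3789 and 4218 normalized counts in PC3 mock cells (24 and 48 h) and 327 and 358 in HeyA8, a log2 difference of 3.33 ± 0.35 (adjusted p = 1.75e-05, edgeR). IL1A, an alarmin of the IL-1 family, went the other way, with 9.0 and 2.87 in PC3 and 317 and 726 in HeyA8 (log2 difference -6.62 ± 0.60, adjusted p = 6.58e-06, edgeR). Groups did not overlap for either gene. CSF2 (GM-CSF), IL24 and IL32 were also higher in PC3. IL11 was lower in PC3. TNF had 0 counts in the PC3 mock libraries and 67 in HeyA8, at least 27.0-fold higher in HeyA8 against the same floor over the 2 PC3 libraries. Of the NF-kB subunits and inhibitors, NFKB1 was lower in PC3 (-1.11 ± 0.24) and NFKBIA higher (0.83 ± 0.28), and RELA, NFKB2, RELB, NFKBIE and NFKBIZ did not pass the test. ICAM1 was higher in PC3 (log2 difference 4.0 ± 0.60, adjusted p = 0.000261, edgeR), with 1735 and 1454 normalized counts against 76.2 and 85.5. IRAK2, an adaptor of IL-1 receptor signalling, and the collagenase MMP1 were higher too, and TNFAIP2 was lower. When 1 mock library was left out, the NFKBIA call held only without the 48 h PC3 one. The IRAK2 call held only without the 24 h HeyA8 one. IL24, IL32 and MMP1 lost their calls in some of these fits. With the time term left out, IRAK2 and MMP1 were not called, at 49.2% of all genes.

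**Figure D2:**
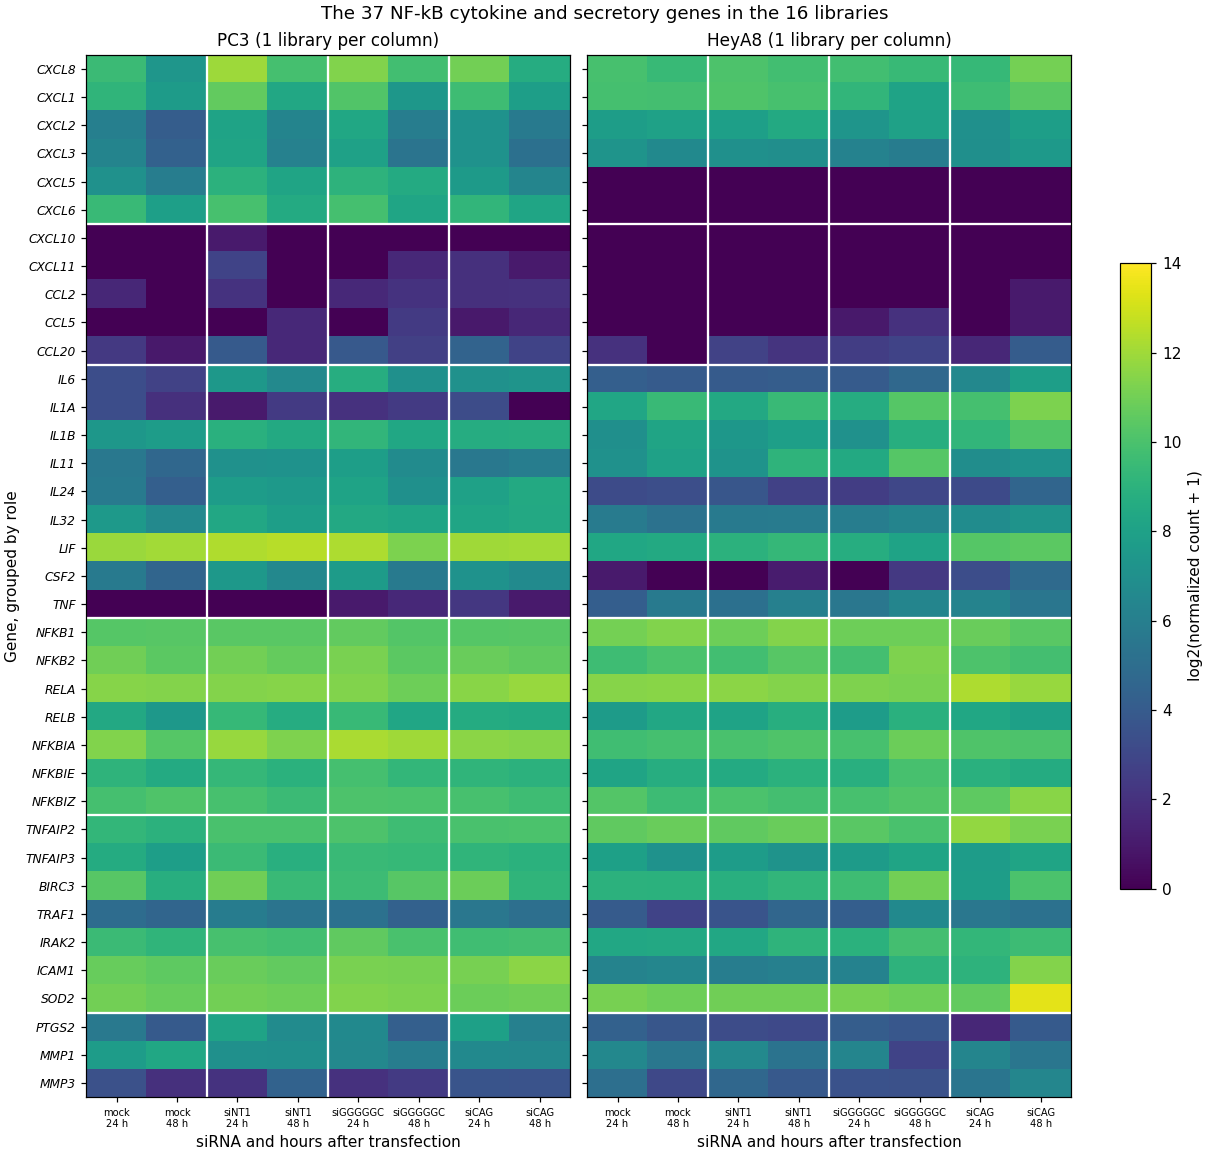
Each cell is log2(normalized count + 1) of a gene (rows, grouped by role) in 1 library (columns, by siRNA and time), with PC3 on the left and HeyA8 on the right; counts were scaled within each line. In PC3 the block of ELR chemokines is brighter at 24 h than at 48 h, and 5 of its 6 genes are darkest in mock at 48 h; in HeyA8, CXCL5 and CXCL6 are at 0 throughout and SOD2 stands out in the siCAG 48 h library, at 11119 normalized counts.

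CXCL10, CXCL11, CCL2 and CCL5, chemokines for lymphocytes and monocytes, never exceeded 6.16 normalized counts in any of the 16 libraries. In mock HeyA8 cells these 4 chemokines had no read, which allows up to 3 counts of each over the 2 mock libraries. CCL20 reached 21.3 normalized counts in PC3 and 15.9 in HeyA8, and was too low for the filter in HeyA8. In all, 31 members passed the filter on low counts in PC3, 29 in HeyA8 and 33 in both lines together. TNF and CCL5 have models on alternate contigs in the counting annotation, and their counts are uncertain.

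The first comparison within a line asked what transfection with the non-targeting duplex did relative to mock treatment. In PC3 it came with more mRNA of CXCL8, IL6, CXCL5 and PTGS2. CXCL8, the main neutrophil chemokine, had 732 normalized counts at 24 h and 163 at 48 h in mock cells, and 3900 and 947 with siNT1. IL6, the inflammatory cytokine that signals through gp130, had 9.0 and 5.75 in mock cells and 176 and 95.6 with siNT1. CXCL5 went from 137 and 60.4 to 503 and 289, and PTGS2, the inducible cyclooxygenase, from 50.01 and 14.4 to 280 and 108. At each time point the siNT1 library was above its mock library for all 4 genes. The groups overlapped for none of CXCL8, IL6, CXCL5 and PTGS2 across times.

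These 4 were the members called, all higher: CXCL8 by 2.47 ± 0.21 on the log2 scale (adjusted p = 0.0159), PTGS2 by 2.70 ± 0.32 (adjusted p = 0.0342), CXCL5 by 2.05 ± 0.25 (adjusted p = 0.0342) and IL6 by 4.17 ± 0.56 (adjusted p = 0.0417; edgeR quasi-likelihood). Of all 15136 genes, 0.205% were called higher (31 genes), and the members made up 4 of those 31. Without any 1 of the 4 libraries compared, no gene at all was called in this comparison, and the log2 fold change of CXCL8 stayed between 2.39 and 2.56. With the time term left out 0 members were called, and with the 4 siNT1 and mock libraries alone 13 were, all higher, at 1.73% of all genes.

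Beyond the 4, most members leaned the same way. Of 31 members tested, 28 had a log2 fold change above 0 and 14 were over 2-fold higher (45.2%, against 3.12% of all genes). The median of the members was 0.89, against -0.01 over all genes. CXCL2 (2.16 ± 0.31, adjusted p = 0.0566), CXCL3 (1.87 ± 0.28, adjusted p = 0.0588) and IL24, a cytokine of the IL-10 family (2.57 ± 0.47, adjusted p = 0.119), were closest to the threshold by edgeR. The median of the 7 subunits and inhibitors was 0.17, 5 of them were above 0, and none was called by edgeR. RELA was at 2863 and 2692 normalized counts in mock and 2697 and 2846 with siNT1. RELB was at 342 and 175 and at 671 and 400, and NFKBIA at 2581 and 1283 and at 3668 and 2546. DESeq2 called RELB higher, as did the fit on the 4 siNT1 and mock libraries alone. Of the members, MMP1 alone was over 2-fold lower, at 213 and 317 in mock and 129 and 123 with siNT1 (adjusted p = 0.295, edgeR).

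**Figure D3:**
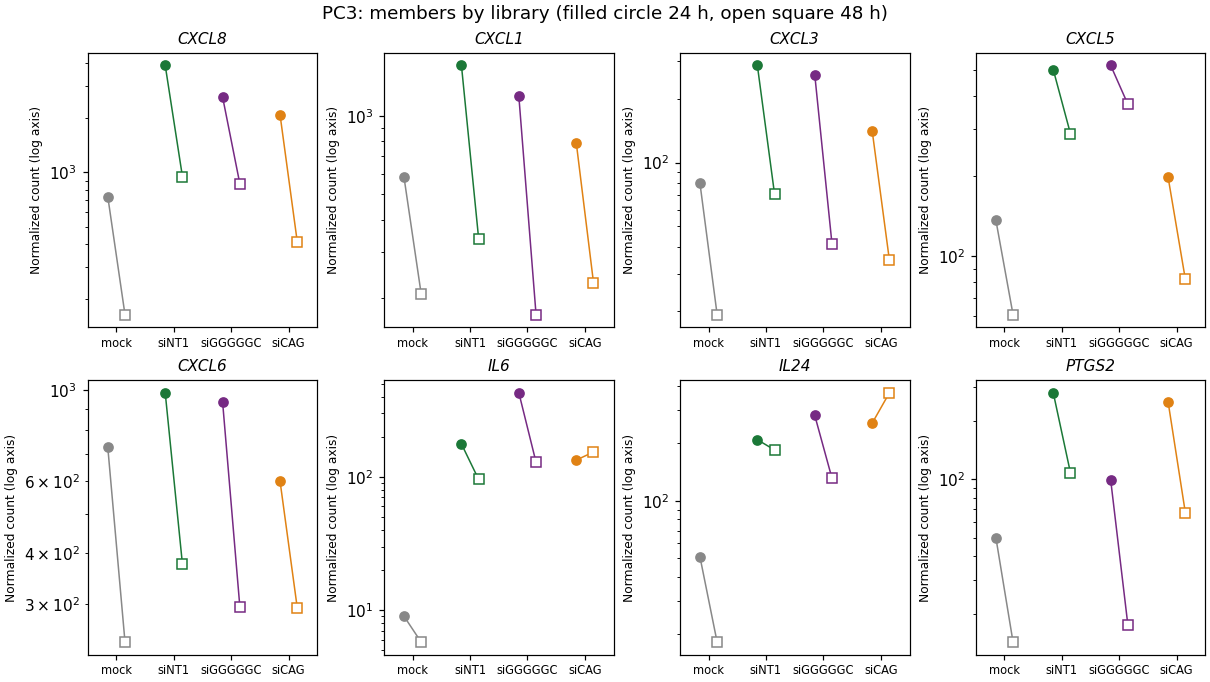
Normalized counts (log axis) of 8 members in the 8 PC3 libraries, by siRNA (x axis); filled circles are 24 h and open squares 48 h, 1 library each, joined by a line. CXCL8 was lowest in mock (732 and 163) and highest with siNT1 (3900 and 947), the square lies below the circle in every group for CXCL8, CXCL1, CXCL3 and CXCL6, and PTGS2 with siGGGGGC (99.1 and 17.6) lies between mock (50.01 and 14.4) and siNT1 (280 and 108) at each time.

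Genes from the other NF-kB lists were mostly not called. Of 26 other NF-kB responsive genes tested, 24 had a log2 fold change above 0 and 1 was called: LCN2, the iron-binding secreted lipocalin, with 36.0 and 27.8 normalized counts in mock and 423 and 333 with siNT1 (3.56 ± 0.36, adjusted p = 0.0247, edgeR). None of 28 signalling components, 11 inhibitors and feedback genes, 14 cytokine receptors, 9 mRNA decay factors or 9 matrix proteases and inhibitors was called. CDH1 (E-cadherin) was the called member of the epithelial markers (1 of 6, higher), with 288 and 276 normalized counts in mock and 806 and 629 with siNT1, beside summed epithelial marker counts of 38025 and 36683 in mock and 45330 and 36958 with siNT1. KRT7 was the most abundant of these as a mean over the 8 PC3 libraries, and none was at 0. In mock at 48 h KRT7 (5504) was below KRT19 (14302). Other marker lists had different sums at both times with none of their genes called. The 6 prostate markers, mostly HOXB13, summed to 10071 and 16140 in mock and 6527 and 9829 with siNT1. The 5 stromal and endothelial markers summed to 831 and 916 and to 1253 and 1915, of which COL1A1, the most abundant, made up 689 and 756 and then 1161 and 1781. The part of these markers in the cytokine result was not tested.

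The other duplexes were also set against mock. With mock as the control for siGGGGGC, 16 members were called higher and 1 lower (MMP1), at 21.1% of all genes called. With mock as the control for siCAG, CXCL8, IL24, IL6, PTGS2 and TNFAIP2 were higher and MMP1 lower, at 2.58% of all genes. Thus PTGS2 was not called for siGGGGGC nor CXCL5 for siCAG. All 3 comparisons share the mock libraries. IL6 with siGGGGGC was at 427 and 128 normalized counts, and with siCAG at 134 and 153. In every transfected PC3 library IL6 was thus above both mock libraries (9.0 and 5.75). In HeyA8, siNT1 against mock gave 0 members called of 29 and 0 of 13872 genes (0%) by edgeR, with 177 genes and 1 member (LIF) at an unadjusted p under 0.05, while DESeq2 called 1 gene and no member. IL6 in HeyA8 had 18.1 and 15.3 normalized counts in mock and 15.5 and 16.3 with siNT1. With the 4 siNT1 and mock libraries alone, IL11 and LIF were called, at 11.8% of all HeyA8 genes. The response to siNT1 was not tested between the lines.

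Time was the second axis in PC3. The 6 ELR chemokines had lower values at 48 h than at 24 h in all 4 conditions. CXCL8 had 3900 normalized counts at 24 h and 947 at 48 h with siNT1, 2602 and 864 with siGGGGGC, and 2080 and 413 with siCAG, beside the mock values above. CXCL1, a related CXCR2 ligand, had 581 and 206 in mock, 1569 and 337 with siNT1, 1192 and 172 with siGGGGGC, and 790 and 229 with siCAG. The 24 h and 48 h values of CXCL1 did not overlap, and those of CXCL8 did, since mock at 24 h was below siNT1 and siGGGGGC at 48 h. CXCL6 ran from 600 to 986 at 24 h and from 242 to 376 at 48 h, and CXCL3 from 80.01 to 287 and from 19.2 to 70.9.

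In PC3 4 genes were called for time in the fit over all 8 libraries: CXCL8 fell by 2.03 ± 0.15 on the log2 scale (adjusted p = 0.0139), CXCL3 by 2.19 ± 0.20 (adjusted p = 0.0308), CXCL6 by 1.41 ± 0.15 and CXCL1 by 2.07 ± 0.22 (both adjusted p = 0.0492), by edgeR. They were all 4 of the genes called of 15136, which is 0.0264%. CXCL2 fell short of the threshold (-1.90 ± 0.22, adjusted p = 0.0737), as did PTGS2 (-1.84 ± 0.22, adjusted p = 0.0964, edgeR). CXCL5 was lower at 48 h in all 4 conditions too, at 522 and 373 with siGGGGGC for instance (-0.91 ± 0.18, adjusted p = 0.276, edgeR). Of 31 members, 30 had a log2 fold change below 0, and 9 were over 2-fold lower (29.0%, against 0.74% of all genes). The median of the members was -0.45, against -0.01 over all genes. DESeq2 called 9 members, all lower, at 1.45% of all genes. With the 4 mock and siNT1 libraries alone, CXCL1, CXCL6 and CXCL8 were called lower with BIRC3, and CXCL3 was not, at 0.0685% of all genes. Leaving out either mock, either siNT1 or either siCAG library ended every call in this comparison (0 genes), whereas all 4 genes were called without the 24 h siGGGGGC library and all but CXCL6 without the 48 h one, BIRC3 being called lower in both. Over the 8 fits the log2 fold change of CXCL8 was between -2.19 and -1.93. Time after transfection, culture density and time since the medium change cannot be told apart.

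In HeyA8 the time term called 0 members and 0 of 13872 genes (0%) by edgeR, with 879 genes and 8 members at an unadjusted p under 0.05, while DESeq2 called 3 members (IL11, IL1A and IL1B, all higher) at 0.44% of all genes. IL1A was higher at 48 h in all 4 conditions, with 317 and 726 in mock, 350 and 715 with siNT1, 407 and 1265 with siGGGGGC, and 944 and 2458 with siCAG. CXCL8 in HeyA8 was lower at 48 h in 3 of the 4 conditions (984 and 684 in mock) and higher with siCAG (671 and 2184). In the 4 mock and siNT1 libraries alone, 8 members were called higher and 5 lower at 12% of all genes, CXCL8 among the lower ones.

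The study asked what siGGGGGC did relative to siNT1. In PC3, 1 member of 31 was called, lower, where 9.67% of all genes were called (6% lower). PTGS2 fell, with 280 and 108 normalized counts with siNT1 and 99.1 and 17.6 with siGGGGGC (-1.95 ± 0.31, adjusted p = 0.0172, edgeR). At each time point siGGGGGC was lower, and the groups did not overlap. Mock was at 50.01 and 14.4, so with mock as the control the log2 fold change of PTGS2 was 0.75 (adjusted p = 0.145, edgeR). The call was lost without either siNT1 library, when no gene was called, and with the time term left out, and it held without either siGGGGGC library. Without the 24 h siGGGGGC library, CXCL1, LIF and MMP1 were called lower as well and BIRC3 higher, at 23.5% of all genes. Without the 48 h one, BIRC3 was called lower beside PTGS2, at 3.99% of all genes, so the direction of BIRC3 was that of the lone library left. The prostate markers HOXB13 and TMPRSS2 were called lower, and the 6 prostate markers summed to 3673 and 3190 with siGGGGGC against 6527 and 9829 with siNT1. Their part in the result was not tested.

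The other members of PC3 had 15 log2 fold changes above 0 and a median of -0.0032 for all 31, and none was over 2-fold higher (4.33% of all genes). BIRC3, an inhibitor of apoptosis that also ubiquitinates NF-kB signalling proteins, went in opposite directions at 24 and 48 h, from 1967 to 763 at 24 h and from 709 to 1308 at 48 h, and fitted over both its log2 fold change was -0.0032 ± 0.56. LIF was at 5201 and 5862 with siNT1 and at 5008 and 2421 with siGGGGGC, so it was lower at 48 h and near equal at 24 h (-0.61 ± 0.29, adjusted p = 0.193, edgeR). NFKBIA was at 3668 and 2546 with siNT1 and at 4839 and 4035 with siGGGGGC (0.54 ± 0.22, adjusted p = 0.135, edgeR).

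The seed GGGGGC pairs with GCCCCC in an mRNA, so its sites in the 3′ UTRs are shown for LIF and NFKBIA, which had lower and higher values with siGGGGGC. They come from the GENCODE v44 transcript of each gene with the longest 3′ UTR, on hg38, with the site in capitals.
LIF site 1: gggagtggaccaGCCCCCagcaaattatca
LIF site 2: ggcagatattgtGCCCCCtggagcagtggg
NFKBIA site: aagaatgtacctGCCCCCcctcttttttta
The sites lie at chr22:30243261-30243266 and chr22:30242153-30242158 for LIF and at chr14:35402238-35402243 for NFKBIA. All are on the minus strand and in the 3′ UTR of that transcript. Whether the NFKBIA site is in the 3′ UTR of the canonical or the expressed transcript was not checked. Among the longest 3′ UTRs of GENCODE, the string GCCCCC was present in 8 of 37 members (21.6%) and in 5408 of 18030 genes (30%). These members were LIF, TNF, NFKB2, RELA, NFKBIA, TNFAIP3, TRAF1 and SOD2. The longest 3′ UTR of a gene can hold sequence that is coding or intronic in its other transcripts. Both counts can thus include strings outside the canonical 3′ UTR, RELA and NFKBIA among them. The sites of SOD2 lie beyond the end of the gene as counted. PTGS2, the member called lower, had no such string in its 3′ UTR. A run of at least 6 CTG, the complement of siCAG, was in no member and in 87 of the 18030 genes (0.483%), in coding sequence or 3′ UTR. Shorter runs were present, with 5 CTG in a row in CXCL5 and MMP1 and 4 in IL11. The share of such shorter runs among all genes was not computed, and their part in the siCAG values was not tested.

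HeyA8 with siGGGGGC gave 0 members called of 29 and 0 of 13872 genes (0%) by edgeR, with 1352 genes and 5 members at an unadjusted p under 0.05. DESeq2 called 318 genes, 2.29% of those tested, and no member. With the 4 siGGGGGC and siNT1 libraries alone, BIRC3, ICAM1 and IL11 were called higher and CXCL1 lower, at 8.86% of all genes. Of 28 members read at each time, 1 was over 2-fold higher and 1 lower at 24 h, and 4 and 4 at 48 h. Among all genes the shares were 1.51% and 3.3% at 24 h and 7.11% and 9.56% at 48 h. IL11, a cytokine of the IL-6 family, was at 146 and 549 with siNT1 and at 358 and 1250 with siGGGGGC, higher at both time points (1.23 ± 0.42, adjusted p = 0.444, edgeR). ICAM1 was at 60.9 and 66.3 with siNT1 and at 73.7 and 525 with siGGGGGC, and NFKB2 at 869 and 1311 and at 896 and 2476. BIRC3 was at 449 and 590 with siNT1 and at 818 and 2094 with siGGGGGC. In contrast, CXCL1 was at 1150 and 969 with siNT1 and at 584 and 281 with siGGGGGC (-1.31 ± 0.41, adjusted p = 0.400, edgeR). The siGGGGGC library was lower for CXCL1 at both time points. It was higher for BIRC3 at both, and for ICAM1 and NFKB2 the excess was at 48 h. The 4 ovarian markers summed to 5725 and 6212 normalized counts with siNT1 and to 3324 and 2387 with siGGGGGC. The 6 epithelial markers summed to 49200 and 46354 and then to 41883 and 21695. None of these markers was called, and their part in the result was not tested.

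**Figure D4:**
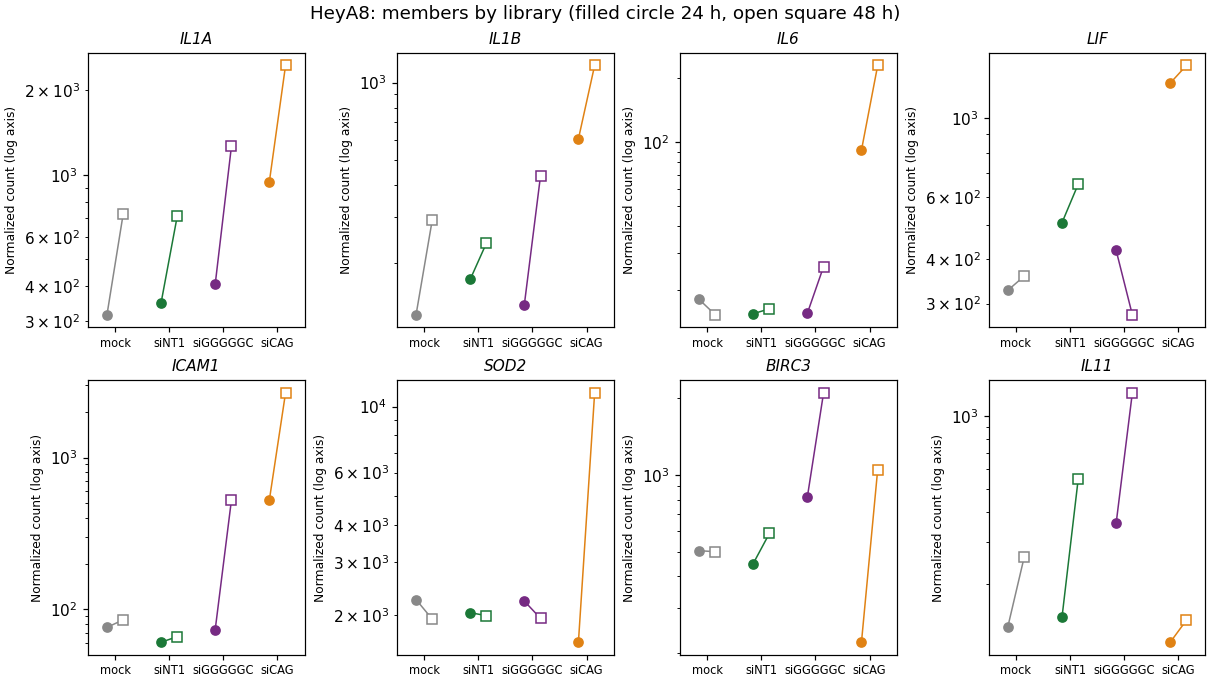
Normalized counts (log axis) of 8 members in the 8 HeyA8 libraries, by siRNA (x axis); filled circles are 24 h and open squares 48 h, 1 library each, joined by a line. With siCAG, IL1A, IL1B, IL6, LIF and ICAM1 were above siNT1 at both times, while SOD2 was high only at 48 h (1616 and 11119), and IL11 and BIRC3 were highest with siGGGGGC at 48 h.

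With siCAG in HeyA8, mRNAs of IL1A, IL1B, IL6 and ICAM1 rose. IL1A was at 350 and 715 normalized counts with siNT1 and at 944 and 2458 with siCAG. IL1B, the secreted IL-1 that drives inflammation, was at 172 and 238 and at 604 and 1166. IL6 was at 15.5 and 16.3 and at 91.3 and 229, and ICAM1, the ligand of leukocyte integrins, at 60.9 and 66.3 and at 523 and 2665. For IL1B, IL6 and ICAM1 both siCAG libraries were above all 6 other HeyA8 libraries except that ICAM1 at 48 h with siGGGGGC (525) was just above siCAG at 24 h (523). IL1A at 24 h with siCAG was below siGGGGGC at 48 h (1265).

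All 4 were called higher: IL1A by 1.60 ± 0.24 on the log2 scale (adjusted p = 0.0189), IL6 by 3.23 ± 0.49 (adjusted p = 0.0192), IL1B by 2.03 ± 0.33 (adjusted p = 0.0222) and ICAM1 by 4.19 ± 0.79 (adjusted p = 0.0317, edgeR). No member was called lower. The background was 2.88% of 13872 genes called higher and 7.81% called either way, so 4 of 29 (13.8%) compares with 2.88%. Of the 29 members, 23 were above 0 and 10 over 2-fold higher (34.5%, against 11% of all genes), with a median of 0.52 against -0.01 over all genes. LIF (1.20 ± 0.29, adjusted p = 0.0536) was at 507 and 652 with siNT1 and at 1257 and 1410 with siCAG. IL32 (1.21 ± 0.36, adjusted p = 0.0847, edgeR) was at 54.1 and 55.4 and at 110 and 144, so for LIF and IL32 too the siCAG libraries were above all siNT1 libraries. IL1A and IL1B are neighbours at chr2:112773925-112836816, a span of 63 kb.

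The siCAG library at 48 h stood apart. SOD2, the mitochondrial superoxide dismutase, was at 11119 normalized counts there and between 1616 and 2248 in the other 7 HeyA8 libraries. CXCL8 was at 2184, NFKBIZ at 2918 and BIRC3 at 1049 in that library, against 671, 1452 and 221 at 24 h with siCAG. For CXCL8 and NFKBIZ this was the highest of the 8 HeyA8 libraries, whereas BIRC3 was higher with siGGGGGC at 48 h (2094). The summed level of all members was 1277 CPM in that library and between 541 and 756 in the other 7. Without that library, ICAM1, IL1A, IL1B, IL6, LIF, RELA and TNFAIP2 were called higher and CXCL2 and CXCL8 lower, at 32.9% of all genes, and SOD2 had a log2 fold change of -0.40. Without the 24 h siCAG library 11 members were called higher and 3 lower, at 31.5% of all genes, with SOD2 and CXCL8 among the higher. Without the 24 h or the 48 h siNT1 library no member was called, at 0.376% and 0.291% of all genes. With the time term left out ICAM1, IL6 and LIF were called (8.56% of all genes), and with the 4 compared libraries alone ICAM1, IL1B and IL6 (4.31%), so IL1A was lost in both and IL1B in the first.

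The other pathway lists are read against the 7.81% of all genes called in HeyA8 with siCAG (2.88% higher). Of 26 other responsive genes tested, 2 rose and 2 fell, and CSF3 (G-CSF) was at 36.7 and 52.1 with siNT1 and at 230 and 437 with siCAG (2.86 ± 0.31, adjusted p = 0.00706, edgeR). Of 27 signalling components, 2 rose and 1 fell: IKBKE, a kinase of the IKK family (1.78 ± 0.25, adjusted p = 0.0155), and MYD88, the adaptor of Toll-like and IL-1 receptors (1.22 ± 0.22, adjusted p = 0.0293), rose, and CHUK, the kinase IKK-alpha (-1.86 ± 0.31, adjusted p = 0.0238, edgeR), fell. Of 11 inhibitors and feedback genes, BCL3 and TNIP1 rose. Among 9 mRNA decay factors HNRNPD (AUF1), which binds AU-rich elements, fell from 13763 and 14506 to 6157 and 5098 normalized counts (-1.34 ± 0.22, adjusted p = 0.0226, edgeR). Among 8 matrix proteases and inhibitors, MMP14 (1.31 ± 0.20, adjusted p = 0.0192, edgeR) and TIMP1 rose, and PLAUR, the urokinase receptor, fell. PLAUR is in both this list and that of other responsive genes, and is counted in each. None of 8 cytokine receptors was called.

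Stromal and endothelial markers had higher values in the same libraries, none of the 5 called. Their summed normalized count was 298, 413, 419, 341, 474 and 389 in the mock, siNT1 and siGGGGGC libraries (24 and 48 h of each) and 770 and 1577 with siCAG, where COL1A1, the most abundant, made up 549 and 1243. None of the 5 was at 0 in all HeyA8 libraries. The 5 mesenchymal markers, none called, summed to 371749 and 293301 with siNT1 and to 471717 and 477483 with siCAG. Of these, FN1 was at 155629 and 72288 and at 255981 and 327882, and 2 of the 5 had log2 fold changes above 0. The 9 immune markers summed to 1713 and 1081 with siNT1 and to 2957 and 1479 with siCAG, beside 1778 and 1473 in mock and 1644 and 670 with siGGGGGC. CD68 made up nearly all of this (2944 and 1474 with siCAG) and was the only one that passed the filter, without being called, while CD3E and MS4A1 were at 0 in all 8 HeyA8 libraries. The part of these markers in the cytokine result was not tested.

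siCAG in PC3 gave no member called higher. It gave 1 of 31 called lower, where 1.2% of all genes were called (1.16% lower). CXCL5 was at 503 and 289 with siNT1 and at 198 and 82.2 with siCAG (-1.55 ± 0.25, adjusted p = 0.0289, edgeR), with groups that did not overlap. Mock was at 137 and 60.4, and with mock as the control the log2 fold change was 0.49 (adjusted p = 0.314, edgeR). CXCL8 was at 2080 and 413 with siCAG (-1.04 ± 0.20, adjusted p = 0.0651, edgeR), and CXCL3 at 141 and 34.7. All 6 ELR chemokines had values below siNT1 in the fit, with a median of -0.91. IL11 was at 134 and 140 with siNT1 and at 47.4 and 60.4 with siCAG (-1.34 ± 0.40, adjusted p = 0.200, edgeR). In the 4 siCAG and siNT1 libraries alone, 8 members were called lower, all 6 ELR chemokines with IL11 and LIF, and ICAM1 and IL24 higher, at 16% of all genes. The CXCL5 call was lost without any 1 of the 4 libraries and with the time term left out, with the log2 fold change between -1.81 and -1.34 when 1 library was left out. PLAUR was called lower, at 1787 and 1956 with siNT1 and at 646 and 472 with siCAG (-1.77 ± 0.21, adjusted p = 0.00749, edgeR), as it was in HeyA8 (10779 and 10088 with siNT1, 2899 and 1109 with siCAG). Of the 6 epithelial markers CDH1 alone was called, lower, at 806 and 629 with siNT1 and 242 and 230 with siCAG, while 4 of the 6 had log2 fold changes above 0 and their summed count was 45330 and 36958 with siNT1 and 53783 and 54800 with siCAG. Of the 5 mesenchymal markers the matrix protein SPARC alone was called, lower, at 264 and 256 and at 112 and 80.2, and their summed count was 49750 and 49124 and then 45272 and 45284, with VIM the most abundant. None of these 11 markers was at 0 in all PC3 libraries. Their part in the result was not tested.

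**Figure D5:**
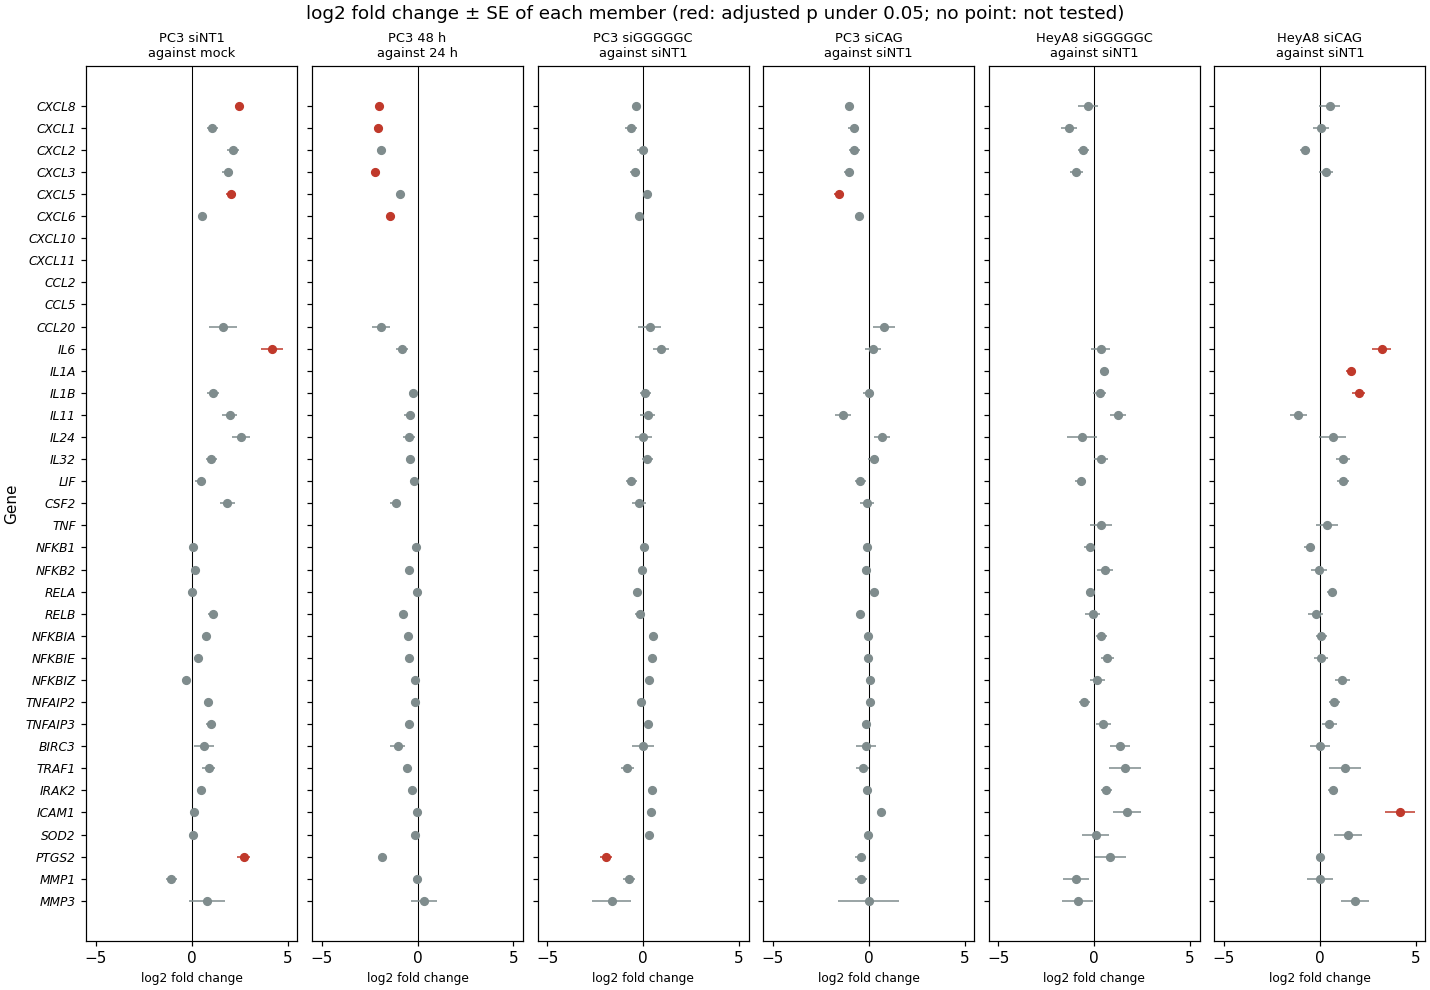
log2 fold change ± SE (x axis) of each member (rows) in 6 comparisons, 1 panel each; red points have an adjusted p under 0.05 and genes without a point were not tested. The called members were 4 in PC3 siNT1 against mock, 4 in PC3 48 h against 24 h, 1 each in PC3 siGGGGGC and siCAG against siNT1, 0 in HeyA8 siGGGGGC and 4 in HeyA8 siCAG against siNT1.

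The pathway lists in PC3 with siGGGGGC are read against the 9.67% of all genes called. TLR3, the receptor for double-stranded RNA, was at 36.9 and 13.4 normalized counts with siNT1 and at 1.00 and 4.14 with siGGGGGC (-3.13 ± 0.75, adjusted p = 0.0428, edgeR), the 1 of 28 signalling components called. ELAVL1 (HuR), which stabilises cytokine mRNAs, was higher, at 5522 and 5659 and at 7713 and 8310 (0.52 ± 0.13, adjusted p = 0.0497, edgeR), the 1 of 9 decay factors called.

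The siRNA responses were also tested between the lines in 1 fit over all 16 libraries. Of 33 members fitted, 31 had counts in both lines, since CXCL5 and CXCL6 were at 0 in HeyA8 and their responses could not be compared. For siCAG 0 of the 31 were called by edgeR, against 101 of 15887 genes (0.636%), with 11 members at an unadjusted p under 0.05. DESeq2 called 5 members, all lower in PC3 (CSF2, ICAM1, IL1B, IL6 and LIF), and 4.22% of all genes. The differences between the responses (PC3 minus HeyA8, log2) were -3.65 ± 0.79 for ICAM1 (adjusted p = 0.0731), -3.11 ± 0.68 for IL6 (adjusted p = 0.0752) and -2.14 ± 0.48 for IL1B (adjusted p = 0.0804, edgeR), beside a median of -0.13 over all genes. Without the HeyA8 siCAG 24 h library 9 members were called, all lower in PC3, at 9.24% of all genes, and without the 48 h library 2 were (ICAM1 and IL1B), at 6.36% of all genes, which is near the share of the members. For siGGGGGC 0 of the 31 members and 0 of 15887 genes (0%) were called by edgeR, with 2 members and 1054 genes at an unadjusted p under 0.05, and DESeq2 called 19 genes and no member.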

How the data were processed

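RNA was read as counts per gene: the authors deposited 1 table of whole-number counts for 16 libraries made from DNase-treated total RNA with TruSeq Total RNA kits. Per the labels and methods, reads were aligned with STAR to hg38 and counted on exons with HTSeq; strand handling is not given in the sources used here, so antisense and overlapping genes are uncertain. 0 sample columns were left unused. Titles name siGGGGGC differently from the characteristics, which set the groups. The members and lists were chosen with earlier results of these data known. Genes were tested with edgeR 4.0.16 in R 4.3.3 (filterByExpr by siRNA, TMM, quasi-likelihood, Benjamini-Hochberg, called at an adjusted p under 0.05), with siRNA and time as terms in all 8 libraries of a line, or line-by-siRNA groups with time within line in all 16. The SE is the log2 fold change over the root of F. DESeq2 1.42.0, RLE factors, no filter, no time term, fewer libraries and each library left out were the alternatives. The fits were checked on simulated counts. Same-numbered libraries share a harvest time in the labels, so time served as the replicate block. Per-library values were given for members called between siRNAs. They were also given for part of the 5 highest per kilobase in each mock. The same holds for those past 2-fold at both times with over 50 normalized counts. NFKB1, of the highest, was left out, as were CSF2, IL24 and CXCL2, past 2-fold at both times with siNT1 in PC3. Of pathway lists, at most 3 genes per comparison with the smallest p were given. Beyond these, MYD88, CHUK, HNRNPD and others were named after their values were seen. Some genes of the fixed lists are not reported here.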

Additional observations from a re-analysis of the deposited data

Results flagged for a closer look

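The response to siCAG was tested between the lines, and 2 pathway genes differed by that test. IKBKE had 1125 and 1184 normalized counts with siNT1 and 1193 and 1361 with siCAG in PC3, and 184 and 181 against 561 and 702 in HeyA8. The difference of its responses, PC3 minus HeyA8, was -1.74 ± 0.32 on the log2 scale (adjusted p = 0.0391, edgeR). TNIP1, which binds TNFAIP3 and restrains NF-kB, had 2936 and 3491 against 2641 and 3118 in PC3 and 2423 and 2802 against 5047 and 5586 in HeyA8, a difference of -1.30 ± 0.25 (adjusted p = 0.0497, edgeR). In mock PC3 cells IKBKE was at 1010 and 701, a gap between the times that was wider than that between siNT1 and siCAG at either time in PC3. The test called 0.636% of all genes, and no explanation was weighed.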

How the results depend on the processing

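The number of called members was recomputed under each alternative. With DESeq2 it was 3 for PC3 siCAG against siNT1 (3.78% of all genes called), 14 for PC3 siNT1 against mock (1.76%), 9 for PC3 48 h against 24 h (1.45%), 7 for HeyA8 siCAG (19.2%), 3 for HeyA8 48 h against 24 h (0.44%) and 5 for the siCAG response between lines (4.22%). With no filter on low counts it was 2 for PC3 siCAG (1.24%), 7 for PC3 siNT1 against mock (0.396%) and 2 for the siCAG response between lines (0.623%). Without the replicate block (the time term left out) it was 0 for siGGGGGC (4.13%), for siCAG (1.09%) and for siNT1 against mock (0.0396%) in PC3. With the 4 compared libraries alone it was 10 for PC3 siCAG (16%), 13 for PC3 siNT1 against mock (1.73%), 4 for HeyA8 siGGGGGC (8.86%), 2 for HeyA8 siNT1 against mock (11.8%) and, for HeyA8 time in mock and siNT1, 13 (12%). With mock in place of siNT1 it was 17 for PC3 siGGGGGC (21.1%) and 6 for PC3 siCAG (2.58%); PTGS2 (0.75) and CXCL5 (0.49) then changed sign. Leaving out 1 library gave 0 to 5 for PC3 siGGGGGC, 0 to 0 for PC3 siCAG and for siNT1 against mock, 0 to 5 for PC3 time, 0 to 14 for HeyA8 siCAG and 0 to 9 for the siCAG response between lines. RLE factors changed no count by more than 1.5 times. Other causes of these shifts were not tested. CXCL10, CXCL11, CCL2 and CCL5 were too low for the filter and were called in no comparison without it.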
